A study of Mus musculus with 12 samples.

Results

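The bile acid and organic anion transporters of the liver were followed across 4 groups of mice as 10 genes chosen by name: Slc10a1, Slco1a1, Slco1a4, Slco1b2, Abcb11, Abcb4, Abcc2, Abcc3, Abcc4 and Slc51b. They were chosen with earlier results of these data known. They are 10 of the 24527 gene symbols in the table of counts, and all 10 passed the filter on low counts that left 13204 genes for testing. The libraries were poly-A selected liver RNA from 12 mice aged 39 weeks. Every mouse was a cross of CF1 females with B6SJL males. The natural groups (3 females and 3 males) were bred by mating, and the IVF groups (3 females and 3 males) were conceived by in vitro fertilization with a Jackson Laboratory protocol. The labels name no treatment, transgene or diet, and say neither which mice shared a litter nor whether the replicates came from separate mothers, so p-values measure the spread between these livers. The titles carry numbers whose meaning the labels do not give: IVF female 1 and IVF male 2 share the number before the point, and each of the other 10 mice has its own. Whether those 2 animals were littermates is not stated, and with either left out Abcc4 and Slco1a4 were still the members called by sex in IVF animals.

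A hepatocyte faces blood on its basolateral side and a bile canaliculus on its apical side. It takes bile acids and other organic anions up from the blood, conjugates them, and pumps them into bile. Uptake runs through the sodium-dependent carrier encoded by Slc10a1 (NTCP) and through the sodium-independent organic anion transporting polypeptides encoded by Slco genes (OATPs). Secretion runs through ATP-driven pumps at the canaliculus: Abcb11 (BSEP) for bile acids, Abcc2 (MRP2) for conjugated anions, and Abcb4 (MDR2), which moves phosphatidylcholine into bile. Abcc3 (MRP3), Abcc4 (MRP4) and Slc51b (the beta subunit of the heterodimeric organic solute transporter) return bile acids and conjugates from the cell to blood. The bile acid receptor FXR, encoded by Nr1h4, is a known activator of Abcb11 and Slc51b, and growth hormone is known to set sex differences among Slco genes in rodent liver.

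The upstream sequences of 5 members are shown because the results below turn on Slco1a1, Slco1a4 and Abcc4, and because Abcb11 and Slco1b2 are the members that hold the inverted repeat recognised by FXR. Each is the 250 bases before the transcript start in RefSeq (GRCm38.p6), written 5′ to 3′ on the strand of the gene, with motif matches in capitals. They lie at chr2:69342617-69342866, minus strand (Abcb11), chr6:141629268-141629517, plus strand (Slco1b2), chr6:141946963-141947212, minus strand (Slco1a1), chr6:141856221-141856470, minus strand (Slco1a4) and chr14:118706220-118706469, minus strand (Abcc4).
Abcb11: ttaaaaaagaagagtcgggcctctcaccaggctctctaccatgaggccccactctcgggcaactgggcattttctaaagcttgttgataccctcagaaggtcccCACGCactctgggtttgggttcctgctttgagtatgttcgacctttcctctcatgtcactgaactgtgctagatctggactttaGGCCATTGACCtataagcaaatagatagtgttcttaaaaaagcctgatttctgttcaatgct
Slco1b2: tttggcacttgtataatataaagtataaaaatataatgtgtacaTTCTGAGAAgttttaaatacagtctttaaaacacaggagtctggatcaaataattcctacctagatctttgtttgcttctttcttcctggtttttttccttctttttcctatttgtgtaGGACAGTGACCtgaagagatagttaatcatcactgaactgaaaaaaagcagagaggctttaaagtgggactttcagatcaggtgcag
Slco1a1: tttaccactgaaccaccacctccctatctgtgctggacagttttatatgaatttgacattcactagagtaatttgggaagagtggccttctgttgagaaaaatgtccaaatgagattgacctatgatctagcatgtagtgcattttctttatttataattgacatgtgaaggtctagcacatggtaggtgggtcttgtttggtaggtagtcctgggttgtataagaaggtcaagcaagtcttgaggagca
Slco1a4: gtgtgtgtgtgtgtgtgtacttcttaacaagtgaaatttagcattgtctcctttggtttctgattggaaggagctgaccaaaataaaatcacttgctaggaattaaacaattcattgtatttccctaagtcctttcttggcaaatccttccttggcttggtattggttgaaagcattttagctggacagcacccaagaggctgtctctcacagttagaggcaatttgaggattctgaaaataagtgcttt
Abcc4: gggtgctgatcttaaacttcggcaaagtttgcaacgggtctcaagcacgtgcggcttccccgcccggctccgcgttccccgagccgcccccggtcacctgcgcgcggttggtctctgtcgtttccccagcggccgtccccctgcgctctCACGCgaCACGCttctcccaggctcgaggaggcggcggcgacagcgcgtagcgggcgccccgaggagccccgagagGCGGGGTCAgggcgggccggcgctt

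Known motifs were searched on both strands of the RefSeq windows, which run from 250 bases before to 50 after a start and were found for 9 of the 10 members. The inverted repeat of FXR, searched as GGNCA and TGACC with 1 base between them, was in 2 members, Abcb11 at -62 to -52 and Slco1b2 at -87 to -77, and in 0.237% of all 32851 windows. The STAT5 palindrome TTCNNNGAA was in 4 members (Slc10a1, Slco1b2, Slc51b and, just past the start, Abcc4) and in 8.3% of windows. The antioxidant response core TGACNNNGC was in 2 members, Abcc2 at -98 to -90 and Abcc4 at -25 to -17, and in 12.4% of windows. The aryl hydrocarbon core GCGTG was in 3 members, Abcb11, Abcb4 and Abcc4, and in 32.4% of windows. Overlapping matches of different motifs were each counted. The upstream sequences of Slco1a1 and Slco1a4 held none of these letters in the window. A match is a description of the letters and not a measured binding site.

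Library depth ranged from 6826534 to 27832271 counts. It was 8056230 to 23430136 in natural females, 6826534 to 22073863 in IVF females, 23448074 to 27832271 in natural males and 14002847 to 21762008 in IVF males. Values below are CPM, counts scaled to a common library size with TMM (trimmed mean of M-values) factors, and 3 counts, the floor used for a gene at 0, equalled 0.119 to 0.445 CPM. IVF female 1 and natural female 2 stood apart: they were the shallowest libraries, and against the other females their genes ran from a median log2 difference of 0.333 in the lowest of 5 bins of GC content to -0.559 in the highest. Results on members that rest on these libraries are given with and without them, except for Slc51b. That gene was not tested without both, since it did not pass the filter on low counts there. Of 8 hepatocyte markers 7 were found by symbol and were abundant in every library, with a sum of 84000 to 122000 CPM. Cholangiocyte markers were also present, at a sum of 34.4 to 71.9 CPM, so the libraries were those of whole liver. In such bulk tissue, fewer cells of a type and less RNA per cell cannot be told apart.

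**Figure D1:**
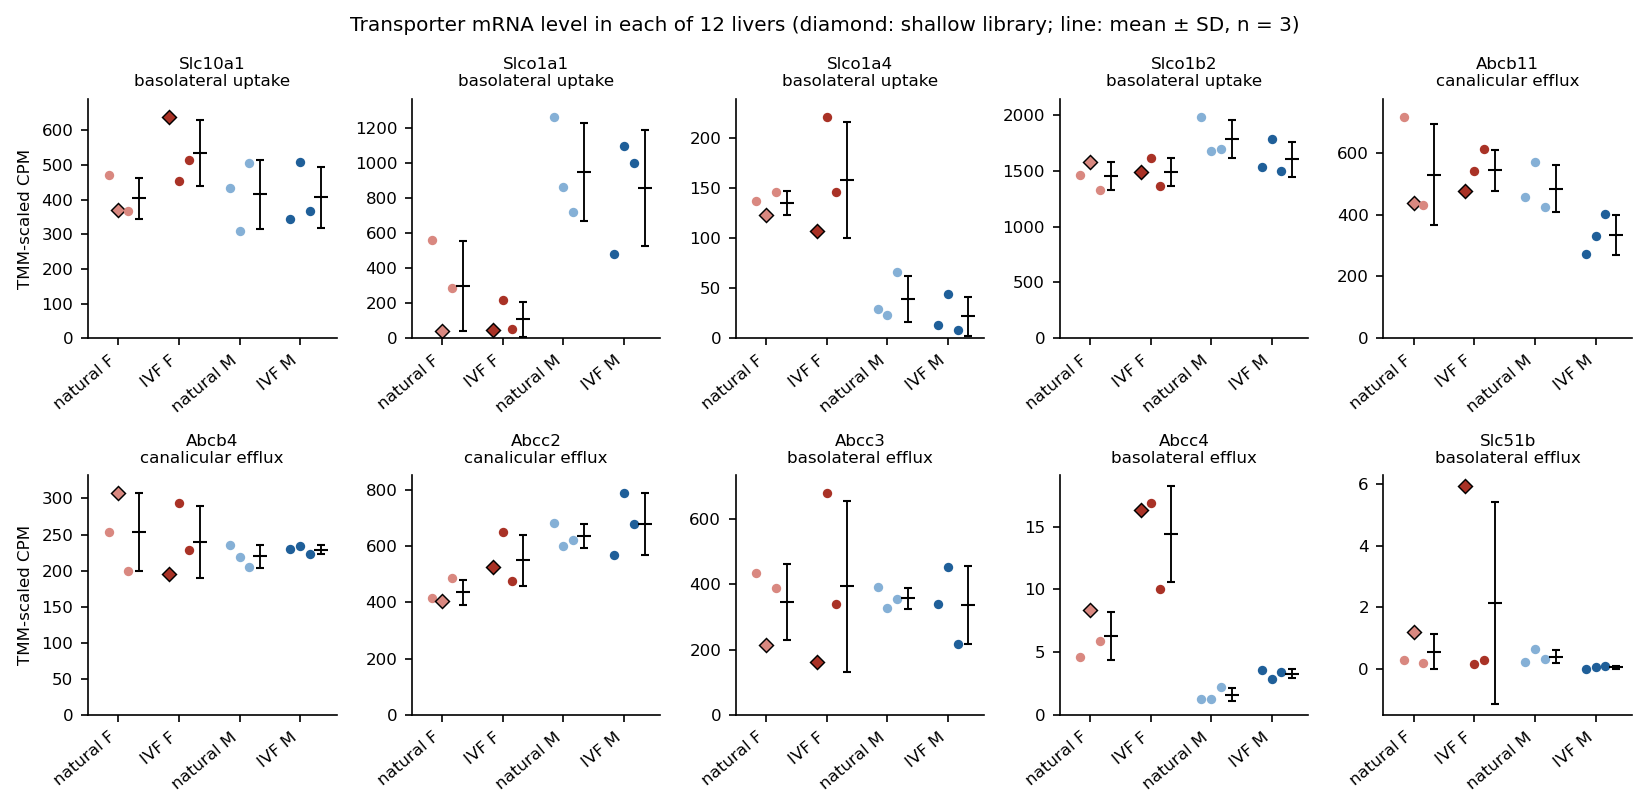
Level of each transporter mRNA in TMM-scaled CPM (y axis, linear) in the natural and IVF females (F) and males (M). Each point is 1 liver, diamonds are the 2 shallow libraries and the horizontal mark with its bar is the mean ± SD of 3 livers. Slco1a4 and Abcc4 are higher in every female than in every male, and Slco1a1 ranges from 44.1 to 559 CPM among the females.

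Slco1b2, whose OATP1B2 protein is a main liver carrier of unconjugated bile acids and bilirubin, had the highest level of the 10 genes in each group, and the level varied little. Per kilobase of annotated exon, it stood at 295 ± 25.1 CPM in natural females, 301 ± 25.5 in IVF females, 362 ± 35.1 in natural males and 325 ± 31.6 in IVF males (SD, n = 3 each). Slc10a1 came next on that scale in every group, at 183 ± 26.7, 243 ± 43.3, 189 ± 45 and 185 ± 40.5 in the same order. In natural females the rest followed with Abcb11 at 103 ± 31.7, Abcc3 at 60.8 ± 20.5, Slco1a1 at 56.2 ± 48.9 and Abcc2 at 51.0 ± 5.26, then Abcb4 at 27.0 ± 5.74 and Slco1a4 at 21.1 ± 1.88. Abcc3, Slco1a1 and Abcc2 did not differ from one another beyond their SD there, and Abcb4 and Slco1a4 differed by little more than the SD of Abcb4. Abcc4 and Slc51b lay far below, at 0.984 ± 0.301 and 0.777 ± 0.794 CPM per kilobase. In natural males Slco1a1 stood at 180 ± 53.2, next to Slc10a1 and within its SD. The order below Slco1b2 depended on the length used: with coding length, 4 of the 10 genes kept their rank in natural females, 6 in IVF females, 6 in natural males and 8 in IVF males.

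Male and female livers differed in the levels of some transporter mRNAs and not detectably in others. Slco1a1, the OATP1A1 carrier of bile acids, steroid conjugates and other anions, was higher in males. Slco1a4, which encodes OATP1A4, a carrier of cardiac glycosides and bile acids, was higher in females, as was the efflux pump gene Abcc4. Averaged over the modes of conception, 3 of the 10 members were called at an adjusted p under 0.05 by edgeR's quasi-likelihood test, against 7.2% of all 13204 genes tested. Across all genes that contrast held 472 genes higher and 479 lower in males. Scaled by library size alone it held 252 higher and 1373 lower, with the median of all genes at -0.221 in place of -0.01 on the log2 scale. Slco1a1, Slco1a4 and Abcc4 kept their directions and their calls under that scaling. Without both shallow libraries the same 3 members were called.

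Slco1a1 (chr6:141907282-141946962, GRCm38) had 559, 44.1 and 287 CPM in natural females 1 to 3 and 47.5, 221 and 54.6 CPM in IVF females 1 to 3. In males it had 1263, 861 and 722 CPM in the natural group and 481, 1097 and 997 CPM in the IVF group. All males lay above all females except that IVF male 1 (481 CPM) was below natural female 1 (559 CPM). Among the 6 females the highest liver had 12.7-fold the level of the lowest, against 2.62-fold among the 6 males. The male excess was 2.33 ± 0.56 (log2 fold change ± SE), a 5.04-fold difference, with an edgeR adjusted p of 0.0303. It was 1.68 ± 0.78 in natural animals (adjusted p 0.342) and 2.99 ± 0.82 in IVF animals (adjusted p 0.0954). The averaged call was narrow: leaving out any 1 of 8 libraries (IVF females 1 and 3, IVF males 2 and 3, natural female 3, or natural male 1, 2 or 3) moved the adjusted p to between 0.0539 and 0.0689. The 3 females below 55 CPM included both shallow libraries, which averaged 2.19 log2 units below the other females, and the part of depth in that spread was not tested. Without both shallow libraries the male excess was 1.88 (edgeR adjusted p 0.027).

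Slco1a4 (chr6:141805440-141856199) lies beside Slco1a1 in the same cluster and had the opposite pattern. Natural females 1 to 3 had 137, 123 and 147 CPM and IVF females 1 to 3 had 107, 221 and 146 CPM. Natural males had 29.1, 23.0 and 66.0 CPM and IVF males had 13.2, 44.5 and 8.76 CPM. The lowest female (107 CPM) was above the highest male (66.0 CPM), so the sexes did not overlap, which 5.75% of all genes shared in this comparison of 6 with 6. Levels were 4.95-fold lower in males (log2 fold change -2.31 ± 0.41, edgeR adjusted p 0.00592), and this call held in all 24 alternatives run. Within IVF animals the difference was -2.84 ± 0.59 (adjusted p 0.0276), and leaving out IVF female 2 or 3 or IVF male 1 or 3 raised the adjusted p to between 0.0603 and 0.114. Within natural animals it was -1.78 ± 0.56 (adjusted p 0.161).

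The makeup of the OATP mRNA differed between the sexes, and its summed level was higher on average in males with overlap, neither of which was tested. The sum per kilobase was 372 ± 43.9 CPM in natural females and 346 ± 50 in IVF females. It was 548 ± 85.5 in natural males and 491 ± 86.3 in IVF males (SD, n = 3 each). IVF male 1 (404) was below natural female 1 (423). Scaled by library size alone, the mean of Slco1b2 was 1599 CPM in natural females and 1588 CPM in natural males. The mean share of Slco1b2 was 79.9% in natural females and 66.5% in natural males. Of the summed level per kilobase of Slco1b2, Slco1a1 and Slco1a4, Slco1a1 made up 27.9 to 37.0% in natural males and 22.6 to 38.3% in IVF males. In natural females it made up 25.1, 2.41 and 15.7%, and in IVF females 2.75, 10.4 and 3.35%. Slco1a4 made up 5.04 to 8.55% in the 6 females and 0.276 to 2.09% in the 6 males. Slco1b2 held the majority in every liver, from 61.5% in IVF male 3 to 92.1% in IVF female 1 and natural female 2. The ratio of Slco1a1 to Slco1a4 per kilobase ran from 0.437 to 4.97 in females and from 13.3 to 138 in males, without overlap.

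**Figure D2:**
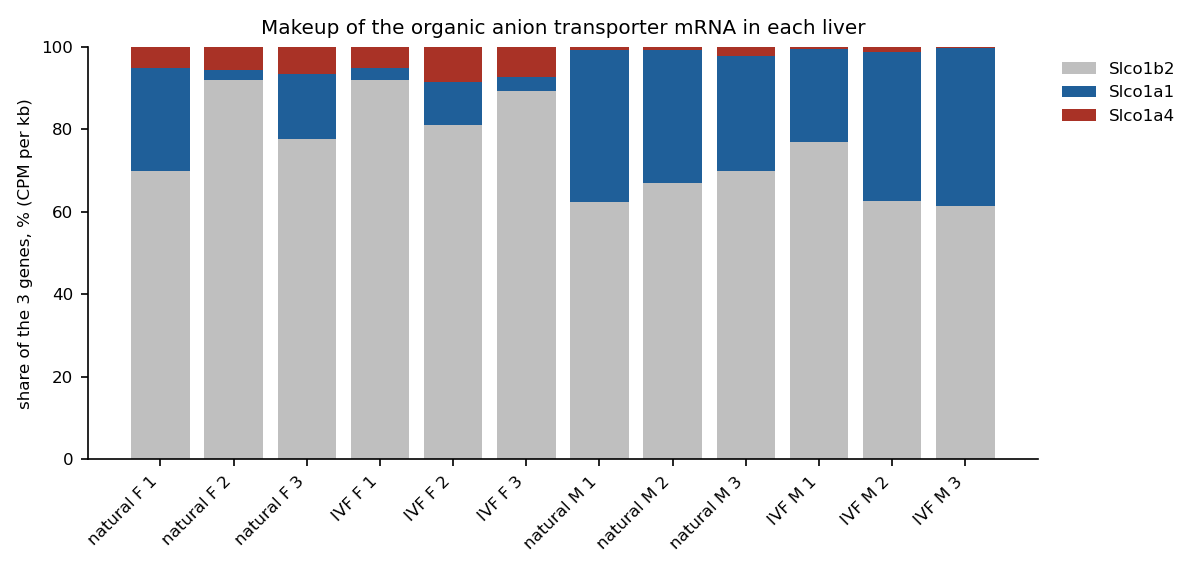
Share of Slco1b2, Slco1a1 and Slco1a4 in their summed CPM per kilobase of exon (y axis, percent) in each of the 12 livers (x axis; F female, M male). Slco1a1 makes up 22.6% or more of the sum in every male, while among the females its share falls to 2.41% in natural female 2.

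The 2 sex-biased genes are close paralogs, and their reads can be hard to tell apart. Their coding sequences are 86.7% identical, with a longest identical run of 132 bases, whereas Slco1a1 and Slco1b2 share 55.6%. How multi-mapped reads were counted is not given in the sources used here, so a share of reads could have been lost or moved between them, and the level of each is uncertain to that extent. The remaining genes of the cluster were nearly silent: Slco1a5 had 0 to 11 counts per library, Slco1a6 had 0 to 5 and Slco1c1 had 0 to 3, and none passed the filter.

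The other uptake genes showed no called sex difference. Slc10a1 had 471, 371 and 368 CPM in natural females, 639, 453 and 513 in IVF females, 433, 309 and 504 in natural males and 344, 508 and 366 in IVF males. The groups overlapped, and the male minus female difference was -0.18 ± 0.17 (95% interval -0.55 to 0.20, adjusted p 0.552). Slco1b2 had 1458, 1577 and 1330 CPM in natural females and 1485, 1611 and 1359 in IVF females, against 1983, 1673 and 1696 in natural males and 1531, 1782 and 1496 in IVF males. In natural animals every male was above every female, as held for 5 members (Slco1a1, Slco1a4, Slco1b2, Abcc2 and Abcc4, in either direction) against 20% of all genes tested. The averaged difference of Slco1b2 was 0.20 ± 0.13 (95% interval -0.08 to 0.49, adjusted p 0.37), and by library size alone it was -0.004.

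Abcc4 (chr14:118482692-118706219) was low in abundance and the member with the clearest sex difference. Natural females 1 to 3 had 4.61, 8.39 and 5.85 CPM and IVF females 1 to 3 had 16.3, 16.9 and 10.0 CPM. Natural males had 1.28, 1.30 and 2.21 CPM and IVF males had 3.57, 2.85 and 3.40 CPM. These values rest on 26 to 406 counts per library. Every female was above every male, and the averaged male level was 4.11-fold lower (log2 fold change -2.04 ± 0.23, edgeR adjusted p 0.000205). The sex difference was -1.95 ± 0.32 in natural animals (adjusted p 0.00971), where it was the sole member called against 1.77% of all genes. Leaving out natural male 2 moved that adjusted p to 0.0528, and fitting the natural libraries alone moved it to 0.055. In IVF animals the difference was -2.13 ± 0.31 (adjusted p 0.0038), where Abcc4 and Slco1a4 were the 2 members called against 2.19% of all genes. In IVF animals the sexes did not overlap for 5 members (Slco1a1, Slco1a4, Abcb11, Abcc4 and Slc51b) in CPM as counted, against 21.8% of all genes. For Slc51b this separation is not established, since the 0 counts of IVF male 1 allow up to 0.206 CPM and IVF female 2 was at 0.166 CPM. Kupffer cell and macrophage markers were also lower in males. In the averaged sex contrast, where 7.2% of all genes were called, 3 of 8 were called and none was at 0. Their sum was 332 to 508 CPM in females and 167 to 343 CPM in males. Of the stellate cell markers 2 of 7 were called lower in males (sums of 330 to 483 CPM in females and 255 to 359 CPM in males), as were 2 of 4 T and NK cell markers and 1 of 4 B cell markers. The T and NK cell markers summed to only 0.394 to 8.15 CPM, highest in shallow natural female 2, and the B cell markers to 0.503 to 3.85 CPM. Sinusoidal endothelial markers had negative estimates for 7 of 7, with 0 called by edgeR, and summed to 236 to 295 CPM in females and 183 to 234 CPM in males. The part of these cell types in the sex difference of Abcc4 was not tested.

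The canalicular pumps differed less by sex. Abcc2 had 414, 404 and 487 CPM in natural females, 524, 648 and 475 in IVF females, 682, 600 and 622 in natural males and 567, 788 and 679 in IVF males. The median was 481 CPM over the 6 females and 650 CPM over the 6 males, with overlap in the IVF groups, and the difference of 0.42 ± 0.14 missed the threshold (edgeR adjusted p 0.0887). Its 95% interval ran from 0.12 to 0.73, and DESeq2 gave an adjusted p of 0.0187. Abcb11 had 716, 438 and 430 CPM in natural females, 477, 540 and 612 in IVF females, 456, 569 and 425 in natural males and 273, 330 and 401 in IVF males. The lowest values were those of the IVF males, all below every IVF female. The averaged sex difference was -0.41 ± 0.17 (adjusted p 0.175), and it reached an adjusted p of 0.0311 when libraries were scaled by size alone. Abcb4 was flat, at 196 to 307 CPM in the 6 females and 205 to 236 CPM in the 6 males, with a difference of -0.13 ± 0.14 (95% interval -0.45 to 0.18, adjusted p 0.595).

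Of the basolateral efflux genes, Abcc3 had a wide spread and no called difference. It had 435, 214 and 390 CPM in natural females, 161, 679 and 340 in IVF females, 390, 326 and 355 in natural males and 339, 453 and 217 in IVF males. The 2 lowest females were the shallow libraries, and the natural males spanned the narrowest range. The sex difference was -0.09 ± 0.32 (95% interval -0.79 to 0.60, adjusted p 0.888). Slc51b was near the limit of detection: it had 7, 10 and 3 counts in natural females, 40, 4 and 7 in IVF females, 5, 13 and 8 in natural males and 0, 1 and 2 in IVF males. IVF female 1, at 5.94 CPM, stood above all other livers, whose highest was natural female 2 at 1.20 CPM. The other chain of the transporter, Slc51a, had 0 counts in 11 libraries and 1 count in IVF male 1. The IVF males were all at or under the floor of 3 counts and no fold is given for them. The exons of Slc51b overlap those of Rasl12 on the opposite strand by 91 bases, and Rasl12 was at 0.214 CPM or less in every library. Cholangiocytes are a known site of Slc51b, and their marker sum was 56.3 CPM in IVF female 1, within the range of the other livers, with none of the 9 markers at 0 throughout.

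**Figure D3:**
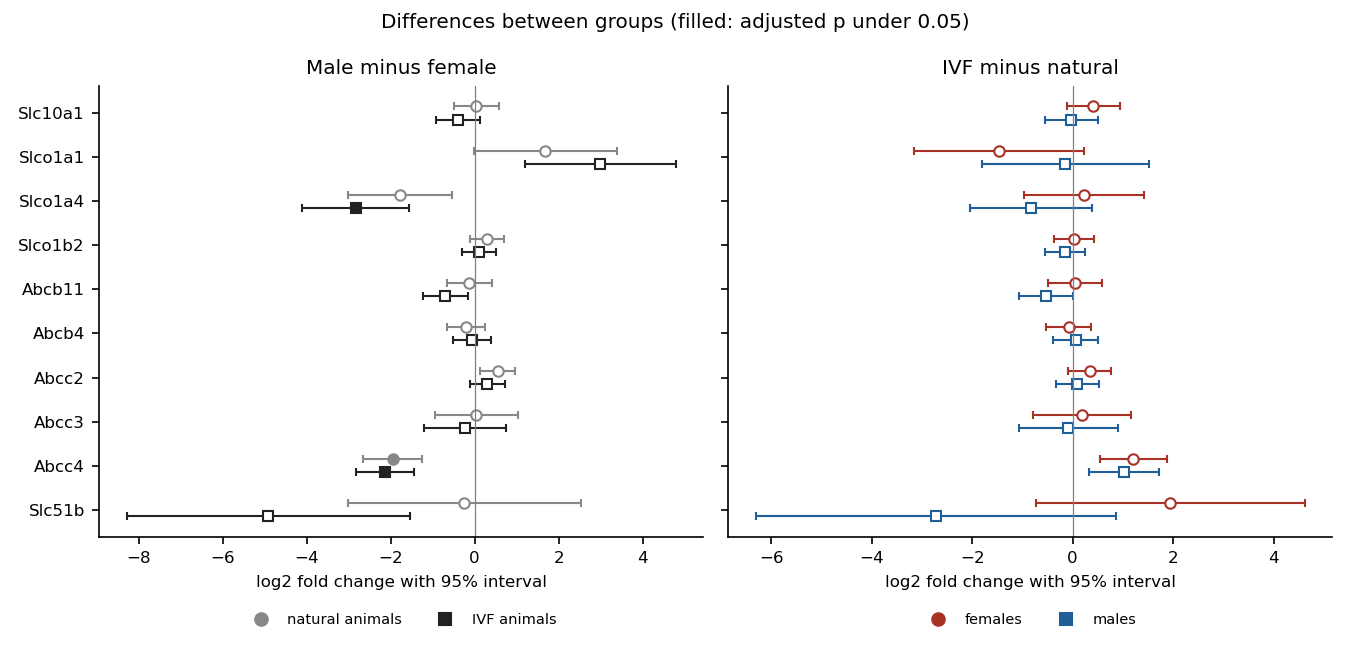
Log2 fold change of each member with its 95% interval (x axis) for male minus female (left, in natural and in IVF animals) and IVF minus natural (right, in females and in males). Filled marks have an adjusted p under 0.05 in edgeR's test over 13204 genes, which holds for Abcc4 in both sex comparisons, for Slco1a4 in IVF animals and for no member in the IVF comparisons.

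IVF was compared with natural conception within each sex, the question the study's title poses, and no member was called. The edgeR test called 0% of genes in females (0 of 13204, with a smallest adjusted p of 0.273) and 0.00757% in males, a single gene that is no member. Averaged over sex it also called 0.00757%. In both fits that gene was Abcd2, a peroxisomal fatty acid transporter, higher with IVF by 3.61 ± 0.35 in males (adjusted p 0.00381); it was named after its values were seen. The count in males fell to 0 with limma voom and without natural male 2 or 3, and the averaged count fell to 0 with limma voom, with the GC offset, and without natural female 1 or natural male 1, 2 or 3. In the reported edgeR fit every member had an adjusted p of 1 in females, in males and averaged over sex. Under the alternatives some values were lower, with no member called in females or in males. Unadjusted p-values under 0.05 were held by 3.7% of genes in females and by 2.69% in males, and among the members by Abcc4 in each sex and by no other member. DESeq2 called 4 genes in females and 5 in males, no member among them.

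Abcc4 was the member with the largest ratio of difference to error. Each IVF female (10.0 to 16.9 CPM) was above each natural female (4.61 to 8.39 CPM), and each IVF male (2.85 to 3.57 CPM) was above each natural male (1.28 to 2.21 CPM). The difference was 1.21 ± 0.31 in females, a 2.31-fold higher level (edgeR unadjusted p 0.00197), and 1.02 ± 0.32 in males, 2.03-fold higher (unadjusted p 0.00793). Averaged over sex it was 1.12 ± 0.22, or 2.17-fold, with a 95% interval of 0.63 to 1.60. The unadjusted p of 0.000308 ranked 3 of 13204 genes, where 2.69% had one under 0.05, and the adjusted p was 1. DESeq2 gave an adjusted p of 0.0158 for this average. It was the only one of 24 alternatives to make the call, and their adjusted p-values ran from 0.0158 to 1. The size varied little: it was 1.11 to 1.20 under other settings and 1.02 to 1.27 with any 1 library left out. It was 1.20 without both shallow libraries, which were 1 IVF female and 1 natural female.

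Groups that did not overlap were common enough to need a background. In females, Abcc4 alone of the members separated IVF from natural livers, against 7.42% of all genes. In males, Abcb11, Abcc4 and Slc51b did, against 8.91%. In both sexes and in the same direction Abcc4 alone did so, against 0.318% of all genes. All 4 groups were free of overlap with one another for Abcc4 and for 7 genes in all, or 0.053% of those tested. In the order natural males, IVF males, natural females, IVF females, Abcc4 was the single gene, 0.00757% of 13204, an order chosen after its values were seen.

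**Figure D4:**
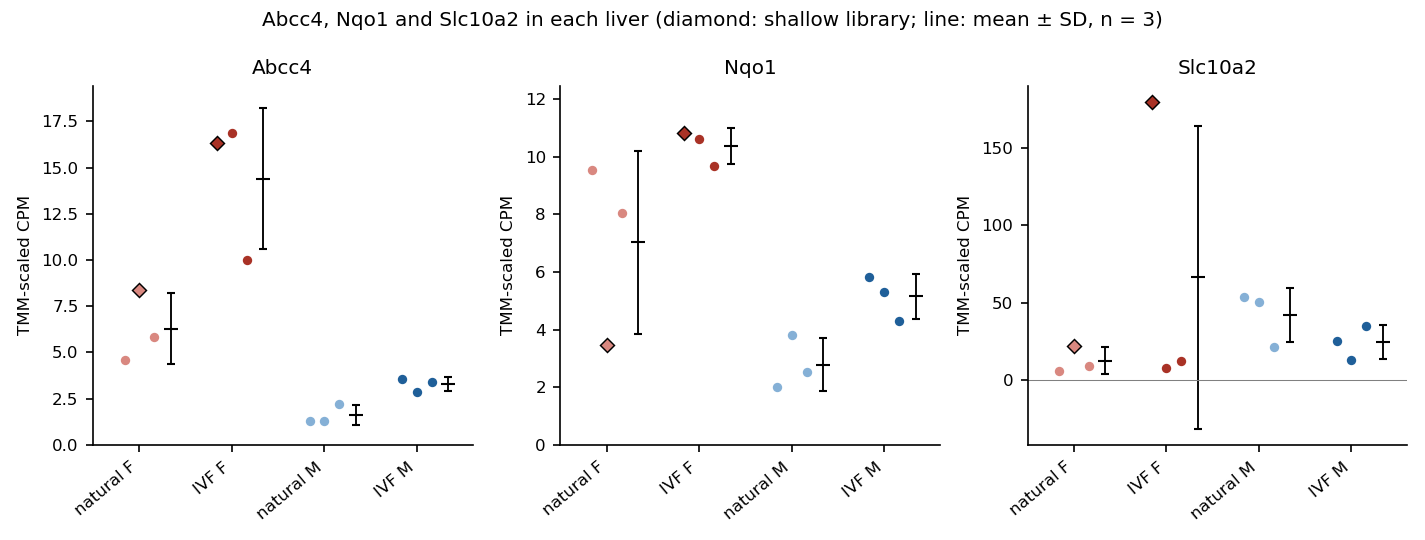
Level of Abcc4, Nqo1 and Slc10a2 (y axis, TMM-scaled CPM) in each liver by group. Points are livers, diamonds the shallow libraries and bars the mean ± SD of 3. The 3 IVF livers of each sex lie above the 3 natural livers of that sex for Abcc4 and Nqo1, and IVF female 1 stands at 179.7 CPM for Slc10a2.

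The other members had wide intervals or small differences with IVF. Abcb11 was lower in every IVF male (273, 330 and 401 CPM) than in any natural male (425 to 569 CPM), a difference of -0.53 ± 0.25 (95% interval -1.07 to 0.01), whereas in females it was 0.04 ± 0.24. The difference between these effects was -0.57 ± 0.35 (interaction adjusted p 1, where 0% of genes were called). In the same males, hepatocyte markers summed to 84000 to 99700 CPM with IVF and 105000 to 108000 CPM without. Kupffer cell markers summed to 167 to 250 CPM against 309 to 343 CPM and had negative estimates for 8 of 8 markers, with 0 called and none at 0 throughout. Sinusoidal endothelial markers had negative estimates for 7 of 7 (183 to 202 CPM against 197 to 234 CPM). All 24 acute phase genes had negative estimates, with 0 called by edgeR (12 at an unadjusted p under 0.05) and a median of -0.86 against 0.01 for all genes. Natural males 2 and 3 carried that list, at 1.60 and 1.10 log2 units above its mean. The part of these differences in the level of Abcb11 was not tested.

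Slco1a1 in females was -1.46 ± 0.78 with IVF (95% interval -3.16 to 0.23), and it moved between -2.54 and -0.62 as single libraries were left out. In males it was -0.14 ± 0.76. Slco1a4 was 0.23 ± 0.55 in females and -0.83 ± 0.55 in males. Slc10a1 was 0.41 ± 0.24 in females, where the highest liver, at 639 CPM, was shallow IVF female 1, and -0.03 ± 0.24 in males. Without both shallow libraries the difference of Slc10a1 in females was 0.22 and that of Abcc3 was 0.33. Slco1b2 was held within the narrowest limits, at 0.03 ± 0.18 in females (95% interval -0.37 to 0.43) and -0.15 ± 0.18 in males (-0.56 to 0.25). Abcb4 was -0.08 ± 0.20 and 0.06 ± 0.20, Abcc2 was 0.34 ± 0.20 and 0.10 ± 0.19, and Abcc3 was 0.18 ± 0.45 and -0.08 ± 0.45 in females and males. The intervals of Slco1a1, Slco1a4 and Abcc3 include differences of more than 2-fold in either sex. Slc51b had an unadjusted interaction p of 0.0416 in edgeR's test, where 3.87% of genes had one under 0.05, and IVF female 1 decided its direction in females: its IVF difference in females was 1.95 with that library and -0.98 without it.

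The members did not vary together beyond the group means in a way that passed correction. Deviations of log2 CPM from the group means were correlated for 45 pairs over 12 livers, with an exact permutation of livers within groups (two-sided), and 0 pairs had an adjusted p under 0.05. The strongest was Abcc3 with Slc51b, at Pearson r of -0.867 (exact permutation p 0.01, adjusted 0.382) and Spearman rho of -0.734 (p 0.0347, adjusted 0.391). Without the 2 livers farthest from the median of Abcc3, which were IVF females 1 and 2, r was -0.672, and without both shallow libraries it was -0.527. Slc51b rested on 0 to 40 counts per library. Against the other females, the shallow libraries differed by -1.26 log2 units for Abcc3 and by 3.09 for Slc51b. The part of depth and of counting error in this correlation was not tested. Slco1a4 with Abcc3 had r of 0.606 (p 0.017, adjusted 0.382) and rho of 0.678 (p 0.0185, adjusted 0.336), and r of 0.738 without its 2 farthest livers.

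Lists of related genes were set beside the transporters. They were chosen with earlier results of these data known, so each share called, here and below, is a description and not a test. Of 19 other uptake and exchange genes tested, 1 was called higher and 2 lower in males, and of 16 other efflux genes 2 were higher and 1 lower. These were 15.8% and 18.8% of the lists, against 7.2% of all genes called in the averaged sex contrast. Abcg2, an apical pump of sulfated conjugates and drugs, was at 52.3 to 108.5 CPM in males and 11.4 to 21.1 CPM in females (log2 fold change 2.14, edgeR adjusted p 5.84e-05). Abcb1a, the MDR1A drug pump, ran the other way, at 1.54 to 3.6 CPM in males and 8.99 to 21.2 CPM in females (-2.53, adjusted p 0.000117). Slc22a27, an organic anion carrier of female liver, was at 21.7 to 72.5 CPM in females and 0.599 CPM or less in males (-6.27, adjusted p 6.47e-07). Slc22a30 (0.76, adjusted p 0.0417) and Abcc12 (1.86, adjusted p 0.0487) were also called higher and Slc47a1 lower (-0.59, adjusted p 0.0438), each with overlap between the sexes and named after its values were seen. Abcc12 rested on 0 to 17 counts per library, and in natural animals its sex difference was 0.62 (edgeR adjusted p 0.707). The medians of these lists were 0.01 and 0.04 against -0.01 for all genes.

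Of 18 genes of bile acid synthesis and conjugation, 2 were called higher and 2 lower in males (22.2%, against 7.2% of all genes). Cyp7b1, the oxysterol 7-hydroxylase of the alternative pathway, was at 658 to 1094 CPM in males and 41.0 to 94.7 CPM in females (3.70, adjusted p 2.09e-06). Scp2, a sterol carrier and thiolase of side-chain shortening, was higher in males by 1.11 (adjusted p 0.00135), and Akr1d1, the steroid 5-beta reductase, was lower (-0.98, adjusted p 0.022). Cyp39a1, an oxysterol hydroxylase, was lower with overlap (-2.82, adjusted p 0.0444). Cyp7a1, the rate-limiting enzyme of the classical pathway, was not called (-0.36 ± 0.40, adjusted p 0.618). These last 2 were named after their values were seen. With IVF, 0 genes of these lists were called in either sex.

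Among 24 receptors and regulators, 1 was called higher and 3 lower in males (16.7%, against 7.2% of all genes). Cux2, a repressor known from female liver, was at 8.31 to 39.6 CPM in females and 0.443 CPM or less in males (adjusted p 3.8e-05). Esr1, the estrogen receptor, was lower in males (log2 fold change -1.49, adjusted p 0.000166), as was Stat5a, a growth hormone signal transducer (-0.60, adjusted p 0.0474). For Esr1 the edgeR call held in IVF animals (-2.35, adjusted p 0.000175) and not in natural animals (-0.62, adjusted p 0.206). The difference between these was -1.73 ± 0.31 and was not called (edgeR interaction, unadjusted p 0.000143, adjusted p 0.878). Bcl6, a repressor that opposes STAT5, was higher in males with overlap (2.02, adjusted p 0.0149). The receptor of bile acids, Nr1h4, was at 61.2 to 107 CPM over all livers, with a sex difference of 0.18 ± 0.16 (adjusted p 0.527) and IVF differences of 0.14 ± 0.23 in females and 0.20 ± 0.23 in males. Its target Nr0b2 (SHP) was not called either (0.92 ± 0.27, adjusted p 0.0648). Bcl6, Nr1h4 and Nr0b2 were named after their values were seen.

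Abcc4 is a known target of the xenobiotic receptor CAR and of the oxidant sensor NRF2. Of 21 other targets of CAR, PXR, FXR and NRF2 tested, 1 was called higher and 7 lower in males (38.1%, against 7.2% of all genes). The 5 with the widest differences were female-predominant enzymes, so this share describes the list as chosen and not targets of these receptors at large. Sult2a1, a sulfotransferase of bile acids and steroids, was at 121.3 to 590.9 CPM in females and had 4 counts in IVF male 2 and 0 in the other males. The P450 genes Cyp3a41a (3401 to 12930 CPM in females, 4.46 to 15.5 in males), Cyp3a44 (401 to 1739, 1.24 to 5.48), Cyp2b13 (137.9 to 427.8, 0 to 2.70) and Cyp2b9 (424.6 to 740.0, 0.206 to 20.97) were likewise without overlap. Each has near-identical family members, so its level is uncertain to the extent that reads were divided among them. With IVF 0 targets were called in either sex, and 13 of 21 were positive in females and 13 of 21 in males (median 0.11 and 0.18, all genes -0.01 and 0.01). An unadjusted edgeR p under 0.05, in either direction, was held by 0 of 21 in females and 5 of 21 in males. Of all genes, 3.7% and 2.69% held one. Nqo1, a quinone reductase and NRF2 target named after its values were seen, was at 9.66 to 10.8 CPM in IVF females and 3.48 to 9.55 in natural females. In males it was at 4.30 to 5.84 CPM with IVF and 2.01 to 3.8 CPM without. It was thus without overlap in both sexes, at 0.54 ± 0.34 in females and 0.89 ± 0.34 in males (adjusted p 1 in each), and its lowest female was the shallow natural female 2. The other NRF2 targets Gclc, Gclm, Txnrd1, Srxn1 and Hmox1 were at -0.24, -0.06, 0.05, 0.33 and -0.18 with IVF in females and at 0.55, 0.10, 0.23, 0.46 and -0.19 in males, in that order (log2 fold changes). None of these 5 separated the groups in both sexes. Nfe2l2, which encodes NRF2, was at 0.01 ± 0.22 and 0.31 ± 0.22. Nqo1 was also among the genes called lower in males (-1.19, adjusted p 0.0138). Cyp2b10, the usual CAR target, was the last of them (-1.79, adjusted p 0.0465) and went the other way in IVF males (1.10, 15.7 and 4.35 CPM against 24.3 to 42.2 CPM in natural males, -2.33 ± 0.70, adjusted p 1), and was named after its values were seen. The 1 target called higher in males was Gsta1 (1.74, adjusted p 0.019), also named after the fact.

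Of 13 genes that place and anchor pumps at the apical membrane, 1 was called higher and 1 lower in males (15.4%, against 7.2% of all genes). Slc9a3r1, the scaffold NHERF1, was at 155 to 208 CPM in males and 68.3 to 141 CPM in females (0.66, adjusted p 0.0177). The gene called lower was Msn (moesin), with overlap (-0.56, adjusted p 0.0365), named after its values were seen. Pericentral and periportal hepatocyte genes, 12 each, had 0 called by sex by edgeR, with 4 of each at an unadjusted p under 0.05 and medians of -0.49 and 0.00 (all genes -0.01). Of 24 acute phase genes 5 were called higher in males in the averaged contrast (20.8%, against 7.2% of all genes). In natural animals 4 were called and 21 of 24 estimates were positive (median 0.86), and in IVF animals 0 were called by edgeR (3 at an unadjusted p under 0.05) and 15 of 24 were negative (median -0.24). The interaction called 0 of 24 by edgeR, with 15 at an unadjusted p under 0.05. Natural males 2 and 3 were the livers highest for this list, and their part in the averaged calls was not tested. Hp (haptoglobin) was at 3301 to 11190 CPM against 1931 to 3015 CPM in females. The rest were Saa1, Saa2, Saa3 and Hpx, named after their values were seen.

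Slc10a2, the sodium-dependent bile acid carrier of ileum and cholangiocytes, was another transporter in which 1 library stood apart. It had 5.58, 22.2 and 9.10 CPM in natural females, 179.7, 7.94 and 11.9 in IVF females, 53.9, 50.2 and 21.6 in natural males and 25.4, 12.8 and 34.8 in IVF males. IVF female 1, which also held the highest Slc51b, was above every other liver. Its cholangiocyte markers summed to 56.3 CPM, against 34.4 to 71.9 CPM over all livers. It was named after its values were seen, and the part of depth in it was not tested.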

How the data were processed

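Liver RNA of 12 mice (3 per combination of sex and mode of conception) was extracted with phenol-chloroform and TRIzol, poly-A selected and sequenced on a NextSeq 500, per the labels' protocols. The authors deposited whole-number read counts per gene symbol in a single table. Per the submitters' processing notes, the tools were Trimmomatic 0.32, STAR 2.3.0e and featureCounts 1.5.0 and the build was mm10. The use of strand, the annotation and how multi-mapped reads were counted are not given in the sources used here. Columns were matched to samples by title, and replicate numbers, given in accession order, pair no samples. The lowest chi-square per degree of freedom between libraries of a group was 84, so each was counted as a separate sample.

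From the deposited counts, edgeR 4.0.16 (R 4.3.3) was run with filterByExpr by group, TMM and a quasi-likelihood fit of all 12 libraries with 1 mean per group, and p-values were adjusted by Benjamini-Hochberg over 13204 genes. Genes were called at an adjusted p under 0.05. Standard errors were obtained from each log2 fold change and its F statistic. Log2 CPM for correlations used a prior count of 2. Symbols were matched to GENCODE M21 (GRCm38) for lengths and GC content, 23813 by symbol and 329 by synonym, with 385 unmatched. Upstream sequences came from RefSeq for 9 members. The fit was tested on simulated data. Counts of 0 allow up to 3 counts, for counting error only.

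The members and lists were chosen with earlier results of these data known. All members are named. Of the other lists, genes called whose groups do not overlap are named, at most the 5 of largest change per list and direction, for the averaged sex contrast and both IVF contrasts, and other genes are marked as named after their values were seen. Alternatives were other scalings, filters, tests (DESeq2 1.42.0, limma 3.58.1), a GC offset, a term for the shallow libraries and leaving out libraries.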

Additional observations from a re-analysis of the deposited data

How the results depend on the processing

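Of 1702 log2 fold changes of members under an alternative, 68 had another sign than reported, of which 0 were called in the reported fit and 0 under the alternative, and the cause was not tested. For members called by sex in natural animals (1 in the reported fit), DESeq2 gave 2, a fit of the compared libraries alone gave 0, and leaving out 1 library gave 0 to 1. By sex in IVF animals (2 reported), DESeq2 gave 4, the compared libraries alone gave 1, and leaving out 1 library gave 1 to 3. Averaged over conception (3 reported), DESeq2 gave 5 and leaving out 1 library gave 2 to 3. For IVF averaged over sex (0 reported), DESeq2 gave 1, which was Abcc4. Across all genes DESeq2 called 1693 by averaged sex against 951, and library size alone called 1625. Counts of members called for IVF in females, in males and for the interaction stayed at 0 in every setting, as did the count of correlated pairs. Under library size alone 7 group means of members moved by more than 1 SD. Depth limits Slc51b most, with 0 to 40 counts. No paired analysis was possible because the groups compared share fewer than 2 numbers: only IVF female 1 and IVF male 2 have the same number before the point in their titles, and the labels do not say what it marks. With library size alone, the log2 estimates of another sign were -0.26 for Slc10a1, -0.00998 for Slco1b2 and -0.28 for Abcc3 (sex in natural animals), -0.00429 for Slco1b2 (averaged sex), -0.0345 for Slco1b2 and -0.0196 for Abcb11 (IVF in females), 0.0899 for Slc10a1 and 0.0546 for Abcc3 (IVF in males), 0.0323 for Abcb4 (averaged IVF), 0.0114 for Slco1b2 and 0.00878 for Abcc4 (the interaction). Without both shallow libraries, the log2 estimates of another sign were -0.0283 for Slc10a1 and -0.22 for Abcc3 (sex in natural animals), 0.22 for Abcb4 (IVF in females), 0.14 for Abcb4 (averaged IVF), -0.17 for Abcb4 (the interaction). With a term for the shallow libraries, the log2 estimates of another sign were -0.33 for Abcc3 and 1.28 for Slc51b (sex in natural animals), -0.00709 for Abcc3 (averaged IVF). With limma voom, the log2 estimates of another sign were 0.0518 for Slc51b (sex in natural animals), 0.0582 for Abcc3 (averaged sex), -0.0119 for Abcc3 (IVF in females), -0.078 for Abcc3 (averaged IVF). With the GC offset, the log2 estimates of another sign were -0.00452 for Slco1b2 (IVF in females). With 1 library left out, the estimates that changed sign ranged over -0.12 to 0.21 for Slc10a1, -0.27 to 0.16 for Abcb11, -0.21 to 0.25 for Abcc3 and -0.79 to 0.74 for Slc51b for sex in natural animals. Sex in IVF animals gave -0.23 to 0.11 for Abcb4 and -0.64 to 0.42 for Abcc3. Averaged sex gave -0.30 to 0.23 for Abcc3. IVF in females gave -0.0917 to 0.47 for Slco1a4, -0.0329 to 0.0912 for Slco1b2, -0.0802 to 0.33 for Abcb11, -0.26 to 0.0787 for Abcb4, -0.47 to 0.58 for Abcc3 and -0.98 to 2.93 for Slc51b. IVF in males gave -0.23 to 0.13 for Slc10a1, -0.36 to 0.14 for Slco1a1, -0.0286 to 0.21 for Abcc2 and -0.36 to 0.15 for Abcc3. Averaged IVF gave -0.10 to 0.0682 for Abcb4, -0.28 to 0.25 for Abcc3 and -1.86 to 0.10 for Slc51b. The interaction gave -0.0209 to 0.32 for Abcb4, -0.67 to 0.38 for Abcc3 and -0.44 to 0.13 for Abcc4.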
